A study of Mus musculus with 12 samples.

Results

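The interferon response genes described here were 9 genes: Stat2, Irf9, Irf7, Ifit1, Ifit3, Isg15, Usp18, Bst2 and Rtp4. They were chosen by name, as genes that mediate or follow the response to interferon, by a rule that used no values of these mice, though earlier results of the same data were known when it was made. All 9 were found among the 54146 genes counted, and all 9 were among the 18628 genes whose counts were high enough to be tested. By edgeR's test with adjustment over all genes tested, 0 of the 9 differed between any of the groups of mice, and Irf9 at P38 against P32 came closest. In each group 1 mouse was the highest in 8 of the 9, and the spread between mice of a group was wide in most of the genes but not in Irf9 and Stat2.

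Whole retinas of 12 mice on the 129/SV background were sequenced as 1 poly(A) RNA library per mouse, with 3 mice in each of 4 groups. The P30 control mice (numbered 1 to 3) carry the label control, and the sources used here do not say further which of the alleles they had. The P32, P34 and P38 cKO mice (numbered 4 to 6, 7 to 9 and 10 to 12) carried the Crx-CreERT2 transgene and Otx2 flox/flox, received tamoxifen in oil (corn oil by the labels, sunflower oil by the study's methods) once by intraperitoneal injection at P30, and were taken 2, 4 and 8 d later. The Crx promoter drives the inducible Cre recombinase in photoreceptors, so bipolar cells and RPE were meant to keep Otx2, the gene of a homeodomain transcription factor of photoreceptors, bipolar cells and RPE. The effects of age, of tamoxifen and of the deletion cannot be told apart here, because the cKO mice were older, injected and deleted for Otx2 at once, and the P30 control mice are labelled with no day after induction.

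The libraries held 29701483 to 60145034 counts on genes. Before TMM scaling, which the other CPM values include, 3 counts were worth 0.0499 to 0.101 counts per 1000000 counts (CPM). Otx2, counted over the whole gene, was at 292.7 to 328.1 CPM in P30 control mice and 307.4 to 377.3 CPM in cKO mice, but this total does not check the deletion, since Cre removes part of the gene only. The 10 photoreceptor markers, which check the label retina, summed to 57326 to 106020 CPM. Markers of neighbouring tissues differed widely between mice: the 8 lens markers summed to 279.8 CPM in mouse 7 and to 45771 CPM in mouse 4, and the 8 RPE and melanocyte markers to 54.3 CPM in mouse 6 and to 840.7 CPM in mouse 2. Mouse 4 stood apart on the first principal component of the log2 CPM of the genes tested, at -89.6, while the other 11 mice lay between -40.36 and 42.54. Read from sex-linked genes, the P30 control mice were 3 females, the P32 mice 2 females and 1 male, and the P34 and P38 mice 1 female and 2 males each.

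Interferons of type I are secreted by cells that sense foreign or misplaced nucleic acids, and they bind receptors present on nearly all cells. Type I interferon acts through the kinases JAK1 and TYK2 on STAT2, which joins IRF9 in the factor ISGF3, and this factor binds interferon-stimulated response elements (ISREs) in the promoters of target genes such as Ifit1, Isg15 and Usp18. Uninduced tissue keeps a low tonic level of the same genes, and in the retina microglia, Müller glia and vessels are known to respond.

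The response element can be read directly in the promoters of several of the 9 genes. RefSeq promoter windows of build GRCm38.p6, which run from 250 bases before to 50 bases after the gene start, were found for 7 of them. The core of the element, searched on both strands as GAAA, any 2 bases and GAAA again, matched 10 times in the windows of 5 genes, Ifit1, Ifit3, Isg15, Bst2 and Stat2, and it occurs in 3.44% of all 32851 promoter windows in the same table. The 220 bases from 250 to 31 bases before the start are shown for those 5 genes, 5′ to 3′ on the strand of the gene, with the matches in capitals, because they show the element where it was found. They come from chr19:34640639-34640858 (plus strand) for Ifit1, chr19:34583279-34583498 (plus) for Ifit3, chr4:156200849-156201068 (minus) for Isg15, chr8:71537503-71537722 (minus) for Bst2 and chr10:128270248-128270467 (plus) for Stat2.
Ifit1: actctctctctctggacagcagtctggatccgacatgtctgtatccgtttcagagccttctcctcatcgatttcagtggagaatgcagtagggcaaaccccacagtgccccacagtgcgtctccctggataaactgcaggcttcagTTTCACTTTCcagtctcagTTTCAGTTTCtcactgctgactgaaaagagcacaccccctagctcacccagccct
Ifit3: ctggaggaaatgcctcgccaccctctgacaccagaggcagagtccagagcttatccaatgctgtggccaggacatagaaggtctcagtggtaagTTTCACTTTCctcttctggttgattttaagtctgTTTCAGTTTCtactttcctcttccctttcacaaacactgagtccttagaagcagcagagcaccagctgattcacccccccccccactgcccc
Isg15: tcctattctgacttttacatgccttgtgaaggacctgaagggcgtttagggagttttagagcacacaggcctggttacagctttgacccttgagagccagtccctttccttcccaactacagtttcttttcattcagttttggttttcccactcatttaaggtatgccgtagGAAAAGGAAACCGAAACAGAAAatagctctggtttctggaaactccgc
Bst2: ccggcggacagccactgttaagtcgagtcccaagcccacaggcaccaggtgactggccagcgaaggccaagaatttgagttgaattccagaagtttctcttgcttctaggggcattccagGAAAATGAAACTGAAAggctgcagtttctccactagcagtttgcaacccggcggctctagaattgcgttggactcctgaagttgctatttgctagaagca
Stat2: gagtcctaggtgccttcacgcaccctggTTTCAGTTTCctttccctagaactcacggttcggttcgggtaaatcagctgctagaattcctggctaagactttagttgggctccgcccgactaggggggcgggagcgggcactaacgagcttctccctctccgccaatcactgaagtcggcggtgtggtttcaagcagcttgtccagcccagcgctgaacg
In Ifit1 and Ifit3 the matches stand on the opposite strand, so they read TTTCACTTTC and TTTCAGTTTC, and the same pair of letter runs occurs in the same order in both genes. They begin 104 and 85 bases before the start of Ifit1 and 156 and 122 bases before that of Ifit3. In Isg15, 3 matches overlap in an unbroken run, and in Bst2 the run is made of 2 overlapping matches. Stat2 held 1 match, which begins 222 bases before its start. The windows of Irf7 and Irf9 held no match, Irf9 being listed with 2 windows. The gamma-activated site TTCNNNGAA, found in 8.3% of all promoter windows, matched in Bst2 alone, and the core of the OTX and CRX site, TAATCC, found in 7.06%, matched in Ifit3 and Irf9. These matches describe letters and do not show that a factor binds there.

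The genes lie on 8 chromosomes of GRCm38. Ifit1 (ENSMUSG00000034459) and Ifit3 (ENSMUSG00000074896) are neighbours on chromosome 19, together with the Ifit3 copy Ifit3b, within a stretch of 66.5 kb. Isg15 (ENSMUSG00000035692) lies on chromosome 4, Irf7 (ENSMUSG00000025498) on chromosome 7, Irf9 (ENSMUSG00000002325) on chromosome 14, Stat2 (ENSMUSG00000040033) on chromosome 10, Usp18 (ENSMUSG00000030107) on chromosome 6, Bst2 (ENSMUSG00000046718) on chromosome 8 and Rtp4 (ENSMUSG00000033355) on chromosome 16. All are protein-coding in GENCODE M21.

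The copies set a limit on what was counted. Of the 50-base windows in Ifit3 transcripts, 51.2% occur unchanged in Ifit3b, so that a read of 50 bases from them has no unique position and was not counted on either gene. In Ifit1, 7.13% of windows occur in Ifit1bl1 or Ifit1bl2, and in Rtp4, 11.6% occur in the overlapping gene Gm45338. The shares were 3.96% or less in the other 6 genes. The levels of Ifit3 and Rtp4 per length can therefore be too low.

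Per kilobase of exon, the mean level over the 12 mice ranged from 6.03 CPM per kb in Stat2 to 0.538 CPM per kb in Rtp4. The order was Stat2, Ifit3 (4.24), Irf9 (3.32), Irf7 (2.60), Isg15 (2.59), Bst2 (2.13), Ifit1 (1.04), Usp18 (0.609) and Rtp4, all in CPM per kb. The ranges over mice of each gene and of the next in the order overlapped throughout, and the means of Irf7 and Isg15 were almost equal. Divided by the median length of their coding transcripts instead of all exons, Irf9 (7.45 CPM per kb) and Irf7 (5.34 CPM per kb) moved above Ifit3, so the order rests in part on the gene model. The 3 factors that carry the signal, Stat2, Irf9 and Irf7, were thus among the higher of the 9 by either length, and Usp18 and Rtp4, with as few as 14 and 16 counts in a mouse, were the lowest or close to it.

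**Figure D1:**
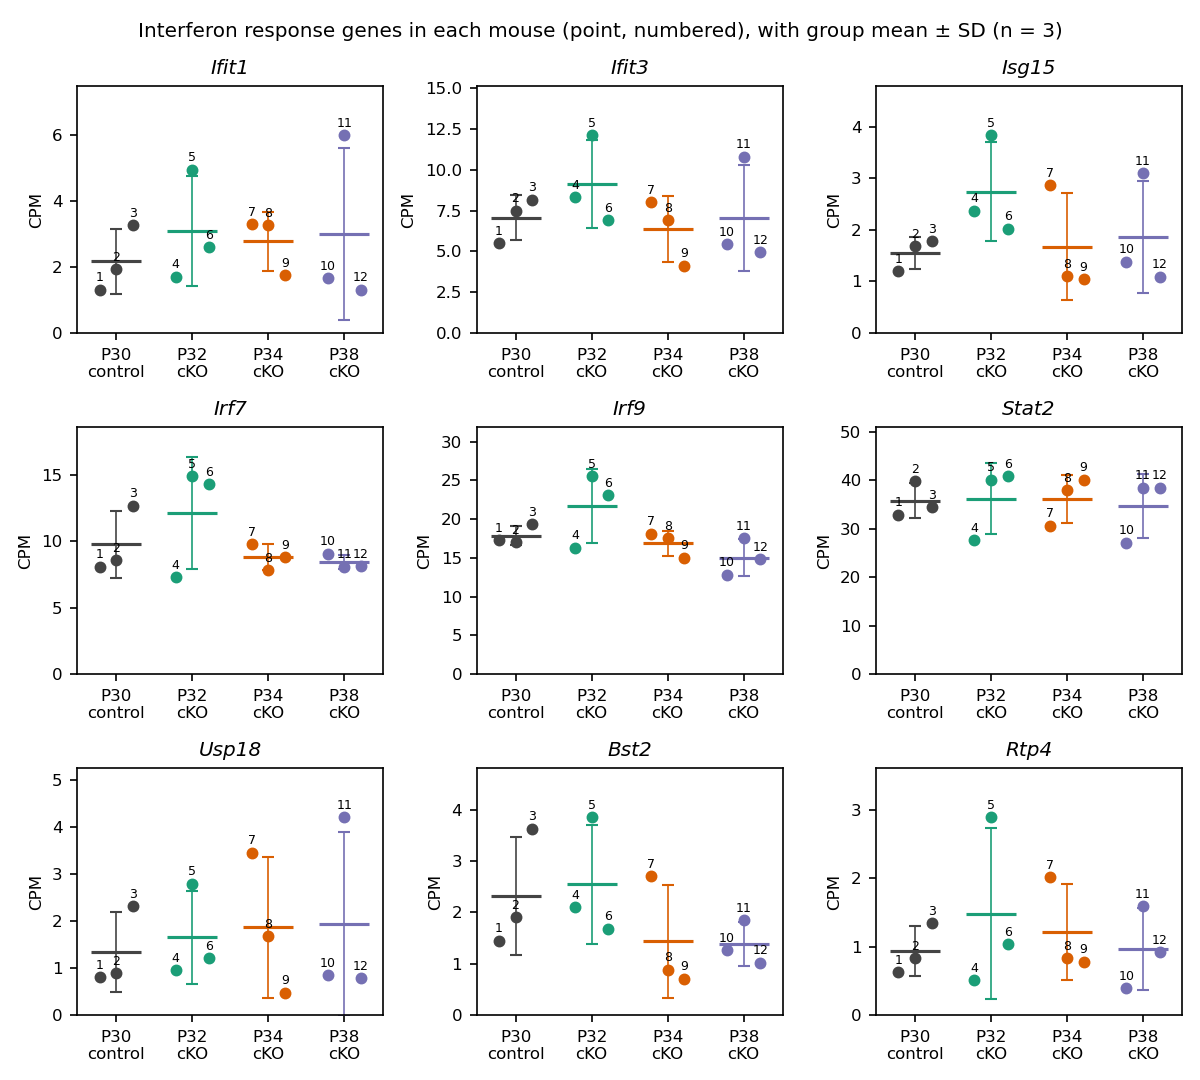
CPM (vertical axes, starting at 0) of each of the 9 genes in each of the 12 mice, which are numbered beside their points, by group, with bars for the group mean and SD (n = 3; the lower bar of Usp18 at P38 is clipped at 0). Mouse 5 at P32 is high in all 9 panels, and mice 3, 7 and 11 top their groups in 8 of the 9 genes each.

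The signalling factors came first. STAT2, the subunit of ISGF3 that activates transcription, is encoded by the gene of the 9 with the narrowest range over the 12 mice. Stat2 was at 32.9, 39.8 and 34.5 CPM in P30 control mice, at 27.7, 40.1 and 40.8 CPM at P32, at 30.6, 37.9 and 40.1 CPM at P34 and at 27.1, 38.5 and 38.5 CPM at P38. All groups overlapped, P30 control with the narrowest span, and the highest mouse exceeded the lowest by 1.5 times over all 12. Against P30 control, its log2 fold changes were 0.02 (P32), 0.02 (P34) and -0.04 (P38), with a standard error of 0.18 and 95% intervals that ran from -0.43 to 0.41 in all.

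IRF9 is the DNA-binding subunit of ISGF3. Irf9 was at 17.3, 17.0 and 19.3 CPM in P30 control mice, at 16.3, 25.5 and 23.1 CPM at P32, at 18.1, 17.5 and 15.0 CPM at P34, and at 12.8, 17.5 and 14.8 CPM at P38. Mice 5 and 6 were the highest of the 12 and mouse 10 the lowest, while mouse 4 at P32 lay below every P30 control mouse, so that each pair of groups overlapped. Against P30 control the log2 fold changes were 0.28 (P32), -0.08 (P34) and -0.25 (P38), with a standard error of 0.17 and adjusted p-values of 0.698 to 0.915 by edgeR. The P32 value was 0.14 without mouse 5 and 0.44 without mouse 4, and the P38 value was -0.13 without mouse 10. Between the cKO ages, Irf9 had a log2 fold change of -0.52 at P38 relative to P32, with adjusted p = 0.129 by edgeR and 0.0468 by DESeq2. DESeq2's call was the only one among the 9 genes under the 19 alternatives tried, and it was not made by edgeR under any of them.

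IRF7 is a transcription factor, itself induced by interferon, that amplifies interferon production. Irf7 was at 8.09, 8.60 and 12.7 CPM in P30 control mice and at 7.29, 14.9 and 14.3 CPM at P32. At P34 it was at 9.77, 7.84 and 8.80 CPM, and at P38 at 9.07, 8.09 and 8.15 CPM. Mice 5 and 6 at P32 and mouse 3 at P30 stood above the other 9 mice, and P32 also held the lowest mouse. The log2 fold changes against P30 control were 0.32 (P32), -0.15 (P34) and -0.21 (P38), with a standard error of 0.25. With 1 mouse left out, the P32 value ran from 0.15 (without mouse 5) to 0.58 (without mouse 4), and without mouse 3 the later values were 0.07 and 0.01. The P38 mice relative to the P32 mice gave -0.53 (adjusted p = 0.226 by edgeR), and -0.36 without mouse 5.

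Of the target genes, Isg15 encodes a ubiquitin-like protein that is attached to other proteins during the response. Isg15 was at 1.20, 1.68 and 1.78 CPM in P30 control mice and at 2.37, 3.83 and 2.02 CPM at P32, so that the P32 mice all lay above the P30 control mice. It was at 2.87, 1.10 and 1.05 CPM at P34 and at 1.38, 3.10 and 1.09 CPM at P38, where 1 mouse of each group was high and the other 2 lay within or below the P30 range. Isg15 at P32 was the 1 case without overlap among the 9 genes in the 6 comparisons, and 5.26% of all genes tested lay above P30 control at P32 in the same way. In either direction, the share of all genes without overlap was 9.65% (P32), 20.1% (P34) and 16.2% (P38) relative to P30 control, 28.4% at P34 and 26.4% at P38 relative to P32, and 9.95% at P38 relative to P34. At P32 the log2 fold change was 0.82, with a 95% interval of -0.19 to 1.83 (adjusted p = 0.698 by edgeR), and without mouse 5 it was 0.50. The later values were 0.12 (P34) and 0.27 (P38), with a standard error of 0.46 to 0.47, and they were -0.53 and -0.32 without mouse 7 and mouse 11, and -0.28 and -0.14 with sex as a covariate.

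IFIT1 and IFIT3 are cytoplasmic proteins of the tetratricopeptide family that bind viral RNA or each other. Ifit1 was at 1.32, 1.94 and 3.27 CPM in P30 control mice, at 1.71, 4.96 and 2.61 CPM at P32, at 3.31, 3.28 and 1.76 CPM at P34, and at 1.67, 6.0 and 1.32 CPM at P38. Mouse 11 was the highest and mice 1 and 12 the lowest, with 4.54 times between the extremes. Its log2 fold changes were 0.52 (P32), 0.37 (P34) and 0.49 (P38), with a standard error of 0.58. Without mouse 5 the P32 value was 0.01, and without mouse 11 the P38 value was -0.52. The P34 value ran from 0.11 without mouse 1 to 0.77 without mouse 3. Ifit3 was at 5.52 to 8.17 CPM in P30 control mice, 6.90 to 12.1 CPM at P32, 4.13 to 8.01 CPM at P34 and 4.96 to 10.8 CPM at P38, with mice 5 and 11 the highest. Its log2 fold changes were 0.37 (P32), -0.15 (P34) and 0.00 (P38), with standard errors of 0.33 to 0.34. The P32 value was 0.11 without mouse 5. At P38 it was -0.33 with sex as a covariate. Ifit3b, which shares its sequence in part, had 0.25, -0.11 and -0.20 (standard error 0.27).

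USP18 is a protease that removes ISG15 from proteins and also blocks the type I receptor, and it acts as the feedback inhibitor of the response. Usp18 was at 0.804, 0.888 and 2.32 CPM in P30 control mice, at 0.960, 2.79 and 1.21 CPM at P32, at 3.45, 1.67 and 0.474 CPM at P34, and at 0.849, 4.20 and 0.781 CPM at P38. It varied the most of the 9 genes, by 8.86 times between mouse 11 (179 counts) and mouse 9 (14 counts). The highest mouse exceeded the lowest by 7.28 times within P34 and by 5.38 times within P38, while the group means lay between 1.34 and 1.94 CPM. Its log2 fold changes were 0.33 (P32), 0.51 (P34) and 0.58 (P38), with a standard error of 0.78, and the 95% interval of the last was -1.12 to 2.27. With sex as a covariate, all P30 control mice being female, the P34 and P38 values were -0.37 and -0.25. Leaving out mouse 5, 7 or 11 turned the value of its own age to -0.27, -0.28 and -0.69.

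BST2, also called tetherin, is a membrane protein that holds budding viruses at the cell surface, and RTP4 is a chaperone of receptor transport that interferon induces. Bst2 was at 1.45, 1.90 and 3.63 CPM in P30 control mice, at 2.1, 3.85 and 1.68 CPM at P32, at 2.71, 0.882 and 0.711 CPM at P34, and at 1.26, 1.85 and 1.02 CPM at P38. Its log2 fold changes were 0.14 (P32), -0.68 (P34) and -0.73 (P38), the lowest of the 9 genes at the later ages, with adjusted p = 0.686 and 0.847 by edgeR. Mouse 7 at P34 and mouse 11 at P38 stood within the P30 range, and without them the values were -1.53 and -1.01. Without mouse 3, the highest of the P30 control mice, they were -0.23 and -0.27. Rtp4 was at 0.631, 0.828 and 1.34 CPM in P30 control mice, at 0.510, 2.89 and 1.04 CPM at P32, at 2.02, 0.833 and 0.779 CPM at P34, and at 0.388, 1.59 and 0.917 CPM at P38. Its log2 fold changes were 0.69 (P32), 0.40 (P34) and 0.08 (P38), with standard errors of 0.64 to 0.65. Without mouse 5, 7 or 11 in turn, the value of that mouse's age was -0.24, -0.19 and -0.52.

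**Figure D2:**
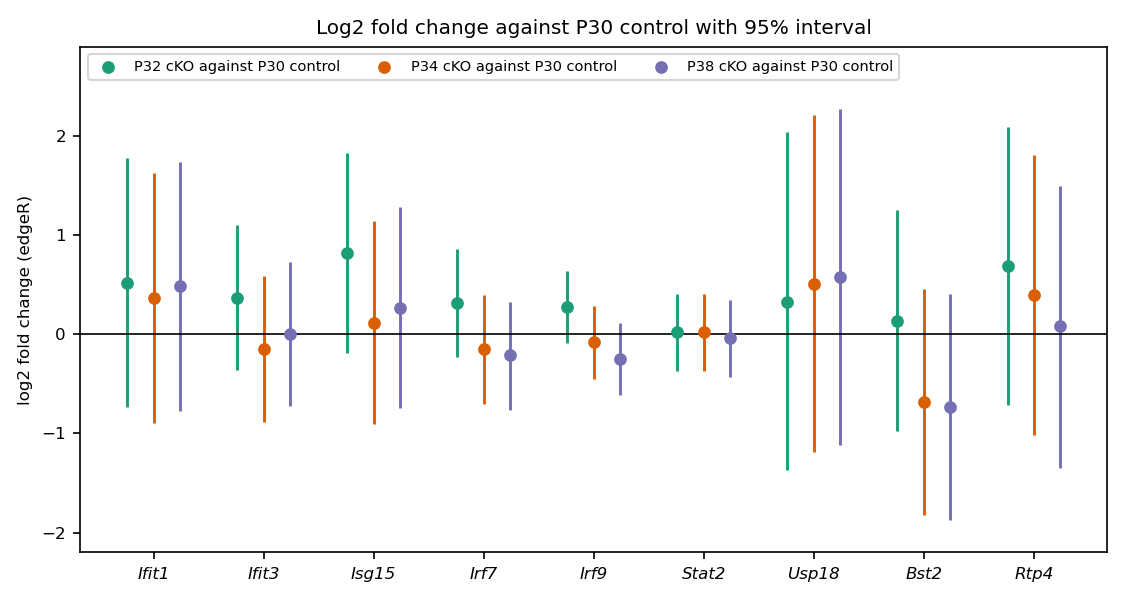
Log2 fold change of each of the 9 genes against P30 control at P32, P34 and P38 (vertical axis), from edgeR's fit of all 12 mice, with bars for the 95% interval. Each interval includes 0, and the intervals are narrowest for Stat2 and Irf9 and widest for Usp18.

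Over the 9 genes, the comparison with P30 control asks whether these genes changed after the deletion in photoreceptors. At P32 all 9 fold changes were positive, with a median log2 fold change of 0.33 beside -0.009 over all genes tested, and 0 of 9 passed the test, as did 0% of all genes tested. This direction rested on mouse 5, without which 5 were positive and 4 negative, with a median of 0.01. The median was 0.22 without mouse 1, and it was 0.60, 0.58 and 0.52 without mouse 3, 4 and 6. At P34, 5 were positive and 4 negative, with a median of 0.02 beside -0.001 over all genes, and 0 of 9 passed, beside 0.66% of all genes. Without mouse 7 the median was -0.24. At P38, 5 were positive and 4 negative, with a median of 0.00 beside -0.009, and 0 of 9 passed, beside 0% of all genes. Without mouse 11 all 9 were negative, with a median of -0.44. With sex as a covariate, Isg15 and Usp18 turned negative and Irf7 positive at P34. In the same fit Ifit3, Isg15 and Usp18 turned negative and Stat2 positive at P38. A gene passed with a Benjamini-Hochberg adjusted value of 0.05 or less in edgeR's quasi-likelihood test and a log2 fold change of 0.5 or more in size. At an unadjusted p of at most 0.05 with the same limit on the fold, 0 of 9 passed at each of the 3 ages, beside 2.9%, 6.27% and 3.46% of all genes, and DESeq2 called 0 at each age by either p. The 3 comparisons share the P30 control mice. In bulk RNA, a change in the number of cells that express a gene and a change in the RNA per cell cannot be told apart.

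Between the cKO ages, 0 of 9 passed at P34 against P32 (0.242% of all genes), at P38 against P34 (0.199%) and at P38 against P32 (0%). In the first and the last of these comparisons 8 of the 9 fold changes were negative, with medians of -0.36 and -0.52 beside -0.021 and -0.02 over all genes, and the P32 values enter both. Without mouse 5, 5 of the 9 were negative in each, with medians of -0.22 and -0.11, and without mouse 7 and mouse 11 the medians were -0.60 and -1.02. The median at P38 against P32 was -0.22 without mouse 10 and -0.29 without mouse 12, and that at P34 against P32 was -0.58 without mouse 4. At an unadjusted p of at most 0.05 with the limit on the fold, 0 of 9 passed at P34 against P32 and at P38 against P34 (14.4% and 3.81% of all genes), and Irf9 alone passed at P38 against P32 (6.23% of all genes lower, 11.9% in either direction). DESeq2 gave 2 genes in the last comparison by the same rule, Irf9 and Irf7. The lowest of these fold changes was that of Bst2 at P38 against P32, -0.88 on the log2 scale, with an adjusted p of 0.32 by edgeR, and it was -0.45 without mouse 5. Asked together, any difference among the 4 groups passed in 0 of 9 genes (0.344% of all genes), with 0.294 as the lowest adjusted p by edgeR, and 0 of 9 had an unadjusted p of at most 0.05 (17.2% of all genes). DESeq2 gave 1 gene at an unadjusted p of at most 0.05 and 0 after adjustment.

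The spread between mice of the same group was wide in most of these genes. On the log2 CPM scale, the SD within groups was 1.11 for Usp18, 0.89 for Rtp4, 0.80 for Ifit1, 0.70 for Bst2, 0.62 for Isg15, 0.47 for Ifit3 and 0.35 for Irf7. Irf9 (0.22) and Stat2 (0.25) were close to the median of 0.24 over the 8543 genes tested whose mean level lay within the range of the 9, and 8 of the 9 exceeded that median. Compared with genes of like level, the variation beyond counting noise in edgeR's fit was 1.98 times that of the trend for Usp18 and 0.851 times for Irf9.

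**Figure D3:**
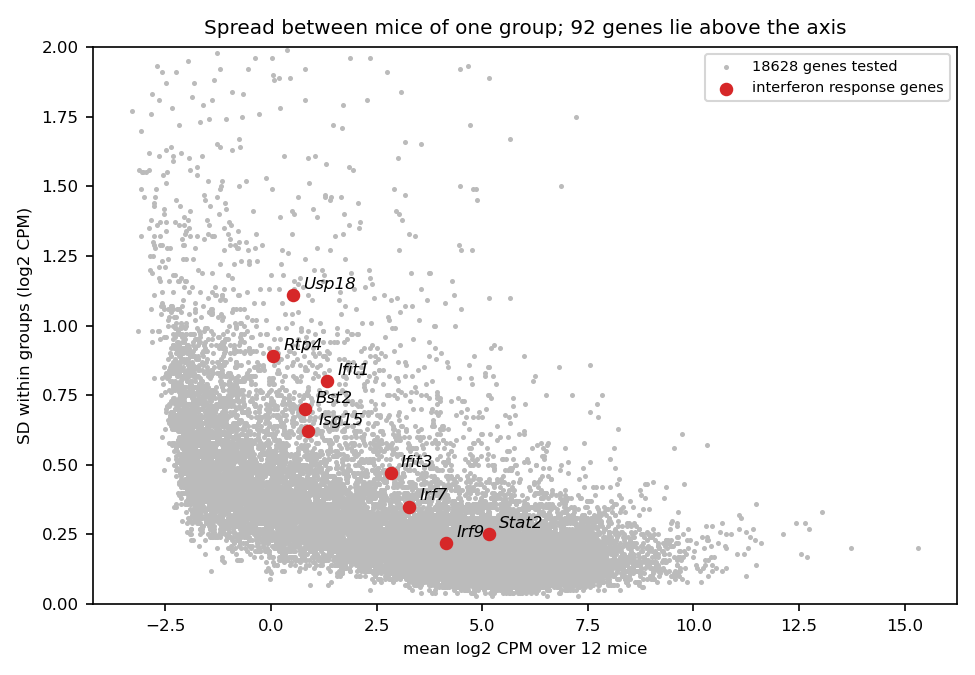
SD of log2 CPM within groups (vertical axis) against the mean log2 CPM over 12 mice (horizontal axis) for the 18628 genes tested (grey) and the 9 interferon response genes (red). Usp18, Rtp4 and Ifit1 stand above most genes of their level, and Irf9 and Stat2 lie within the cloud; 92 genes lie above the end of the axis at 2.

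The same mice were high in gene after gene. Mouse 5 was among the 3 highest of the 12 in all 9 genes and was the highest in 6. Mouse 11 was among the 3 highest in 5 genes and the highest in 2, Ifit1 and Usp18. Mouse 3 at P30, mouse 5 at P32, mouse 7 at P34 and mouse 11 at P38 were each the highest of their group in 8 of the 9 genes. The exceptions were Stat2, led by mice 2, 6 and 9 at the first 3 ages, and Irf7, led by mouse 10 at P38. Relative to their group mean, the median deviation over the 9 genes was 0.40 in mouse 3, 0.53 in mouse 5, 0.38 in mouse 7 and 0.70 in mouse 11 on the log2 scale, while the median over all genes was between 0.009 and 0.018 in these mice. The P30 control group thus held such a mouse as well.

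Depth and the makeup of the tissue are given beside this ranking. The 4 mice had 35242774 to 42718433 counts, neither the deepest nor the shallowest libraries, and were 2 females (mice 3 and 5) and 2 males (mice 7 and 11). The 10 microglia markers summed to 81.0, 72.1, 89.2 and 68.4 CPM in mice 3, 5, 7 and 11, against 65.0 to 89.2 CPM over all 12, so that mouse 7 was the highest and mouse 11 near the lowest. The 8 leukocyte markers summed to 2.76 to 3.93 CPM in every mouse, with Cd3e at 0 counts in the P32, P34 and P38 groups and Ly6g at 0 in the P30 group. Endothelial markers summed to 308.0, 295.5, 390.8 and 364.4 CPM in these 4 mice, against 245.5 to 390.8 CPM over all 12. Lens markers summed to 39457 CPM in mouse 3, 33413 in mouse 5, 279.8 in mouse 7 and 5320 in mouse 11. RPE and melanocyte markers summed to 724.0, 157.9, 107.6 and 143.0 CPM in the same mice. The part of cell makeup in the ranking was not tested.

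Over the 12 mice, 24 of the 36 pairs of genes had a Pearson r of log2 CPM above 0.5, and all 24 were among the 28 pairs without Stat2, whose lowest r was 0.35. Ifit1 with Usp18 and Ifit3 with Isg15 were the closest (r = 0.90 each), and the best partner of Bst2 was Isg15 (0.81), of Rtp4 Ifit1 (0.79), and of Irf7 and Irf9 each other (0.77). Stat2 had r between -0.14 and 0.47 to the others. The points share their libraries, and a mouse that is high in many genes raises all these values at once.

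The 8 genes whose levels followed the mean profile of the 9 most closely, among 18619 other genes tested, were Apobec1 (r = 0.92), Ifit3b (0.90), Irgm1 (0.90), Oas1b (0.90), Tap1 (0.90), Gbp3 (0.88), Oasl2 (0.87) and Ddx60 (0.87). Oas1b and Oasl2 belong to the oligoadenylate synthetase family, GBP3 and IRGM1 are interferon-inducible GTPases, TAP1 transports peptides for MHC class I, and APOBEC1 is a cytidine deaminase that edits RNA. Ifit3b shares sequence with Ifit3, as given above. Without mice 5 and 11, which lay farthest from the median of the profile, r was 0.76 to 0.91 for the 8 genes over the other 10 mice, and for deviations from the group means it was 0.89 to 0.96. These values describe genes picked for a high r in the same mice and are no separate check of the likeness. Gbp3 ranged from 2.1 to 8.01 CPM and Oasl2 from 3.06 to 16.1 CPM, while Apobec1 ranged from 1.12 to 1.64 CPM only.

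**Figure D4:**
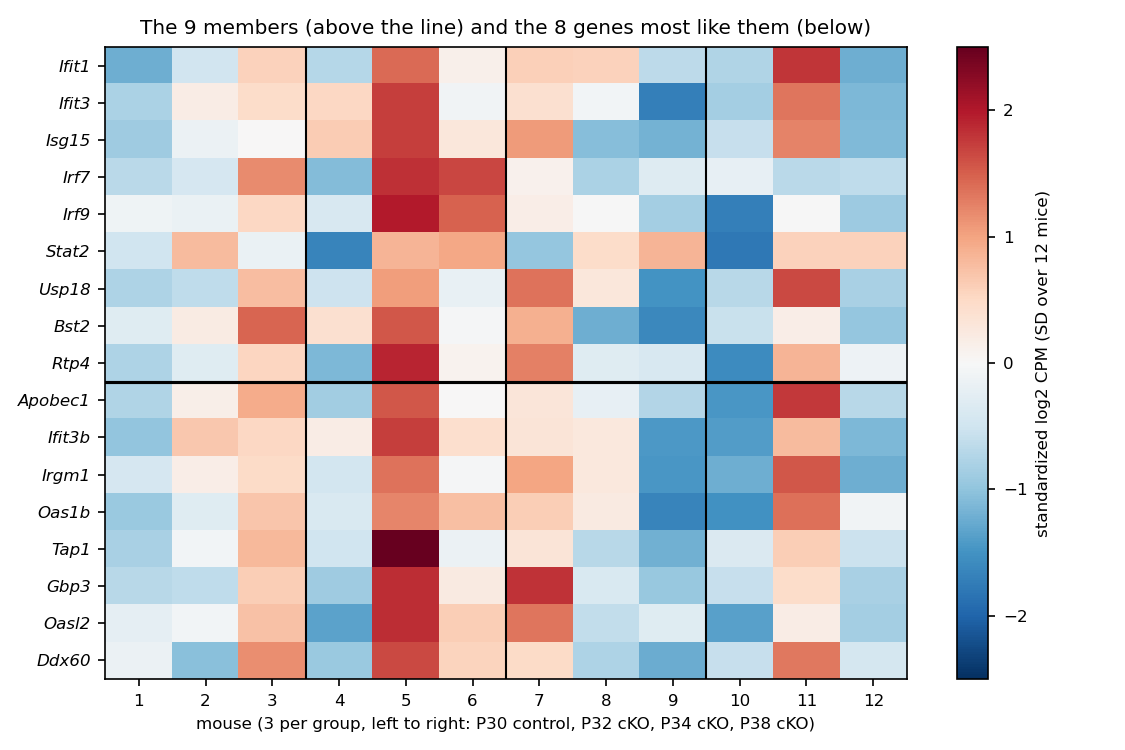
Log2 CPM of the 9 genes (above the line) and of the 8 genes most like them (below) in mice 1 to 12, standardized per gene over the 12 mice (color, in SD). The columns of mouse 5 and, in most genes, mice 3, 7 and 11 are red, and those of mice 1, 9, 10 and 12 mostly blue, with Stat2 the exception.

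In lists of interferon pathway genes, the likeness to the profile was found among targets. The median r was 0.54 over 55 other genes induced by type I interferon, of which 58.2% had r above 0.5, and 0.56 over 13 genes induced mainly by interferon gamma (61.5%), beside 0.02 and 3.57% over all genes. It was 0.20 over 6 receptor chains, -0.00 over 10 signalling genes, 0.06 over 9 other IRF genes and 0.17 over 14 sensors and adaptors, and 3 sensors and no gene of the other lists just named had r above 0.5. Endothelial markers had a median r of 0.45 (4 of 8 above 0.5), microglia markers -0.13 and leukocyte markers -0.31.

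The ligands were at the floor. Of 16 interferon genes, 10 had no count in any mouse, none had more than 2 counts in a mouse, and they held 15 counts in all over the 12 libraries, so none could be tested. At these depths a count of 0 allows up to 0.0499 to 0.101 CPM before TMM scaling, and this limit covers counting error only. Of the 6 receptor chains, all were tested and 0 passed after adjustment in any comparison. Il10rb, a chain shared by the type III interferon and IL-10 receptors, was at 4.34 ± 1.07 CPM (SD, n = 3) in P30 control mice and at 2.75 ± 0.203 CPM at P38, with -0.65 as the log2 fold change (95% interval -1.12 to -0.19, adjusted p = 0.847 by edgeR) and no overlap between the groups. Ifnlr1, the specific chain of the type III receptor, was at 0.542 ± 0.292 CPM (SD, n = 3) in P30 control mice and at 0.203 ± 0.00853 CPM at P38, where P30 control mouse 1 (0.205 CPM) lay within the P38 range, with a log2 fold change of -1.37 (95% interval -2.45 to -0.29, adjusted p = 0.847 by edgeR). Ifnar2, a chain of the type I receptor, was at 5.34 ± 0.527 CPM in P30 control mice and at 4.12 ± 0.228 CPM at P38 (SD, n = 3), with a log2 fold change of -0.37.

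Between receptor and nucleus, 10 of 11 signalling genes were tested and 0 passed after adjustment. Jak1, a kinase of all interferon receptors, was at 161.0 ± 5.67 CPM in P30 control mice, 142.3 ± 25.2 CPM (P32), 188.0 ± 13.1 CPM (P34) and 178.4 ± 21.4 CPM (P38; SD, n = 3). Ptpn11, a phosphatase gene, was likewise lowest at P32 (132.3 ± 27.7 CPM, SD, n = 3) and was at 185.9 ± 9.74 CPM at P34, with a log2 fold change of 0.49 between them (adjusted p = 0.0949 by edgeR). Pias1, a SUMO ligase gene, was at 98.5 ± 9.12 CPM at P32 and 123.9 ± 8.16 CPM at P38 (SD, n = 3). Mouse 4 was the lowest P32 mouse in all 3 genes, and its Ptpn11 level was 100.3 CPM against 148.1 and 148.4 CPM in mice 5 and 6, which lay within the P30 range of 140.4 to 172.6 CPM. Mouse 4 was also the P32 extreme in Irf3, Irf1, Irf2bp2 and Traf3, whose means are given next. None of these values passed the threshold after adjustment.

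Of the 9 listed genes of other interferon regulatory factors and their partners, 9 were tested and 0 passed, and the smallest p-value over the 4 groups among the interferon pathway lists was found here (lowest adjusted p = 0.152 by edgeR). Irf3, the factor that first induces interferon after sensing, was at 57.0 ± 5.75 CPM in P30 control mice, 62.7 ± 9.12 CPM (P32), 39.9 ± 6.81 CPM (P34) and 47.8 ± 3.41 CPM (P38; SD, n = 3). Its P34 values lay below the P30 and the P32 values without overlap, with a log2 fold change of -0.52 against P30 control (adjusted p = 0.222 by edgeR) and -0.65 against P32 (adjusted p = 0.0948). Irf1, induced by interferon gamma, was at 4.64 ± 0.239 CPM in P30 control mice, 6.34 ± 1.51 CPM at P32 and 4.02 ± 0.388 CPM at P38 (SD, n = 3). Irf2bp2, whose product binds IRF2 and acts as a corepressor, was at 50.6 ± 6.08 CPM at P32 and 33.3 ± 3.64 CPM at P38 (SD, n = 3), a log2 fold change of -0.60 (adjusted p = 0.114 by edgeR).

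Of 16 sensors and adaptors, 14 were tested and 0 passed after adjustment. Traf3, an adaptor of the sensing pathways, was at 43.1 ± 8.71 CPM at P32 and 62.2 ± 4.28 CPM at P38 (SD, n = 3). Ticam1, the adaptor of TLR3, was at 3.58 ± 0.154 CPM in P30 control mice and 2.64 ± 0.488 CPM at P34 (SD, n = 3), and Zbp1, a sensor of Z-form nucleic acids, stayed at 0.0339 to 0.360 CPM. The gene lists of targets held 58 type I and 19 type II genes, of which 55 and 13 were tested. By edgeR, 0 of them passed after adjustment in any comparison. The study, which used DESeq2, lists Ifitm2 of the type I genes as downregulated at P34. Values for the pathway lists are given here by edgeR only. Ifitm2, a membrane protein that blocks virus entry, was at 4.32 ± 0.375 CPM in P30 control mice and 1.0 ± 0.262 CPM at P34 (SD, n = 3), with no overlap and a log2 fold change of -2.11 (95% interval -3.40 to -0.81, adjusted p = 0.223 by edgeR). Ifi27 was at 13.7 ± 4.06 CPM in P30 control mice, 19.2 ± 7.19 CPM at P32 and 8.23 ± 4.28 CPM at P34 (SD, n = 3). Ifitm1 was at 0.953 ± 0.310 CPM in P30 control mice and 0.465 ± 0.172 CPM at P34 (SD, n = 3).

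Icam1, an adhesion molecule of activated endothelium, was at 0.894 ± 0.135 CPM in P30 control mice, 0.437 ± 0.185 CPM (P34) and 0.485 ± 0.0778 CPM (P38; SD, n = 3). At P34 its log2 fold change was -1.02 (95% interval -1.71 to -0.34, adjusted p = 0.265 by edgeR), without overlap with the P30 values. Nlrc5, the activator of MHC class I genes, was at 1.53 ± 1.05 and 0.792 ± 0.197 CPM in P30 control and P38 mice, and Iigp1, an interferon-inducible GTPase, at 0.490 ± 0.323 and 0.848 ± 0.667 CPM (SD, n = 3). Over all pathway lists, 135 genes were listed, 107 were tested and 0 passed in any of the 6 comparisons by edgeR. At an unadjusted p of at most 0.05 with the limit on the fold, 1 was higher at P32, 6 were lower at P34 and 4 were lower at P38 than in P30 control mice, beside 1.13%, 5.42% and 2.66% of all genes in the same directions. The RPE and melanocyte markers summed to 146.9 to 840.7 CPM in P30 control mice and 71.1 to 107.6 CPM at P34. The ciliary body markers summed to 225.5 to 388.6 and 93.1 to 105.9 CPM. At P34 against P30 control, 6 of the 8 RPE and melanocyte markers were negative and 2 positive, and 2 passed as lower. Of the 8 ciliary body markers, 7 were negative and 1 positive, and 6 passed as lower. These sums are carried by the most abundant markers. The lens markers had the lowest median log2 fold change at P34, -4.97, with sums of 532.2 to 39457 CPM in P30 control mice and 279.8 to 764.6 CPM at P34. Within P32, Ifitm2 was at 5.97 CPM in mouse 4 and 1.01 CPM in mouse 6, where the lens markers summed to 45771 and 748.6 CPM. In P30 control mouse 2, Ifitm2 was at 3.90 CPM beside a lens sum of 532.2 CPM. The part of these tissues in the values at P34 was not tested.

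**Figure D5:**
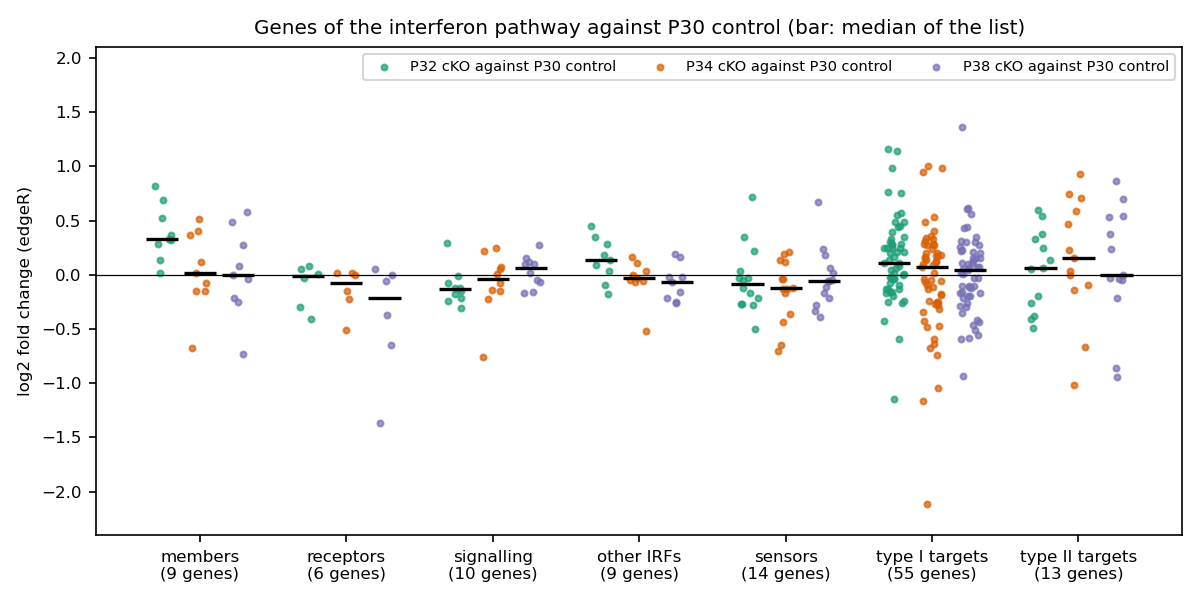
Log2 fold change against P30 control (vertical axis) of the 9 genes and of the tested genes of 6 pathway lists at P32, P34 and P38, 1 point per gene with a bar for the median of the list. The median of the 9 genes at P32 (0.33) stands above those of the other lists, which lie between -0.22 and 0.15 over the 3 ages, but without mouse 5 it was 0.01 and the other lists at P32 lay between -0.34 and 0.14.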

How the data were processed

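Poly(A) RNA of whole retinas was sequenced by the authors as 50-base single reads from stranded libraries, with 1 eye and 1 library per mouse. The authors mapped the reads to mm10 with STAR 2.5.3a and counted them per Ensembl gene with HTSeq 0.6.1p1 in union mode, and they deposited these counts as whole numbers without normalization. The strand option of the counting is not given in the sources used here. Reads without a unique position were 23.68 to 32.15% of each library and were not counted on genes.

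From the counts, CPM (TMM scaling) and quasi-likelihood tests over all 12 mice were computed with edgeR 4.0.16 in R 4.3.3, with 1 mean per group, edgeR's filter on low counts and Benjamini-Hochberg adjustment over 18628 genes. Standard errors are fold changes divided by the square root of F. The log2 CPM used a prior count of 2. Replicates are separate mice, and no library repeated another of its group (pairs across groups were not compared). Alternatives were DESeq2's size factors, other filters, DESeq2 1.42.0, a robust fit, fits of 2 groups, sex as a covariate and leaving out each mouse. Scripts were tested on simulated data. All members are named, and from each pathway list the 3 genes with the smallest p over the 4 groups, with Ifit3b and the 8 genes most like the members. The members and lists were chosen with earlier results of these data known. Gene models and symbols are from GENCODE M21 and promoters from RefSeq.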

Additional observations from a re-analysis of the deposited data

How the results depend on the processing

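With all mice kept, 7 alternatives gave 224 fold changes, of which 9 had another sign than reported and 1 passed the threshold. They cover every fold change of the 9 genes against P30 control. Between the cKO ages they cover only Irf7 and Irf9 at P34 and P38 against P32, and Bst2 at P38 against P32. Under DESeq2, 1 gene was called at P38 against P32, where edgeR called 0. With sex as a covariate, the log2 fold change against P30 control was -0.33 for Ifit3 (P38), -0.28 and -0.14 for Isg15 (P34 and P38), 0.06 for Irf7 (P34), 0.18 for Stat2 (P38), and -0.37 and -0.25 for Usp18 (P34 and P38). All P30 control mice were female, so this fit takes the sex difference from the cKO mice alone. Ifit3 at P38 was -0.00 with a filter of 1 CPM in 3 mice and with only the 2 groups compared in the fit. The cause of these differences was not tested.

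With 1 mouse left out in turn, 0 of 9 genes were called in every comparison, and 17 of the 27 fold changes against P30 control took both signs. At P32 the log2 values ran from -0.08 to 0.18 for Stat2, -0.27 to 0.96 for Usp18, -0.29 to 0.60 for Bst2 and -0.24 to 1.10 for Rtp4. At P34 they ran from -0.35 to 0.07 for Ifit3, -0.53 to 0.35 for Isg15, -0.27 to 0.07 for Irf7, -0.08 to 0.12 for Stat2, -0.28 to 1.13 for Usp18 and -0.19 to 0.72 for Rtp4. At P38 they ran from -0.52 to 0.89 for Ifit1, -0.44 to 0.20 for Ifit3, -0.32 to 0.54 for Isg15, -0.33 to 0.01 for Irf7, -0.12 to 0.12 for Stat2, -0.69 to 1.21 for Usp18 and -0.52 to 0.47 for Rtp4. Irf9 at P38 against P32 stayed between -0.69 and -0.39.

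Usp18 and Rtp4 had as few as 14 and 16 counts in a mouse, and their coefficients of variation beyond counting noise were 0.643 and 0.537. No paired analysis was possible because the mice are numbered through from 1 to 12 and no number occurs in more than 1 group.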
